A study of Mus musculus with 16 samples.

Results

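The receptors through which cells hold and sense the extracellular matrix were examined by bulk RNA sequencing of mouse inguinal white adipose tissue (iWAT). The set comprised 33 of the 54532 genes measured, taken by gene name. It held 18 integrin α subunits, 8 integrin β subunits, the 2 discoidin domain receptors, the 4 syndecans and dystroglycan. The set was chosen with earlier results of these data known. The 16 libraries came from 16 male mice, 4 in each of 4 groups, and all mice ate chow with 200 mg/kg doxycycline for 5 days. Has2_TG were Apn-Has2 mice, which carry Apn-rtTA, a doxycycline-activated transcription factor under the adiponectin promoter of adipocytes, together with a TRE-driven cDNA of the hyaluronan synthase Has2. PH20_TG were Apn-PH20 mice, which carry the same Apn-rtTA with a TRE-driven cDNA of the hyaluronidase PH20, encoded by Spam1. Has2_WT and PH20_WT were the respective littermates, and although their labels read WT, they carried Apn-rtTA and received doxycycline as well. The mice were 8 to 10 weeks old when doxycycline began. Both transgenes are made in adipocytes, whereas the RNA came from the whole depot with its other cell types. The comparisons ask how receptor transcripts of the depot differ when adipocytes make more hyaluronan or digest it.

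Integrins are dimers of an α and a β subunit, and the α subunit largely decides which ligand is bound: collagens, laminins, proteins with an RGD motif such as fibronectin, or ligands on other cells. Discoidin domain receptors are tyrosine kinases that bind collagen, syndecans are heparan sulfate proteoglycans that act as co-receptors, and dystroglycan links laminin outside the cell to dystrophin inside it. Several integrins (Itgal, Itgam, Itgax, Itgad, Itgae, Itgb2 and Itgb7) are known mainly from leukocytes, so their level in a fat depot also follows the leukocytes it holds. In bulk tissue, fewer cells of a type and less RNA per cell cannot be told apart.

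Each library held between 14421692 and 26751729 reads on genes. The 7 adipocyte markers summed to between 3428 and 8129 FPKM (fragments scaled to gene length and library size) in every library. Has2 had 131 to 263 reads in Has2_TG against 30 to 93 in Has2_WT. It also had 241 reads in PH20_TG1 and 197 in PH20_TG4, against 32 in PH20_TG2, 7 in PH20_TG3 and 22 to 87 in PH20_WT. These counts are not scaled to depth. PH20_TG1 and PH20_TG4 held 16483486 and 14421692 reads on genes, and the Has2_TG libraries held 16350133 to 25870098. In PH20_TG1 and PH20_TG4 the Has2 reads thus reached the counts of Has2_TG at similar or lower depth. Has2 reads alone did not set Has2_TG apart from all other libraries. Spam1 had 5 to 12 reads in PH20_TG2, PH20_TG3 and PH20_TG4 and 0 reads in PH20_TG1, which allows up to 3 reads, so PH20_TG1 was not shown to express its transgene and the calls of the PH20 study are also given without it. Has2_WT1, Has2_WT2, PH20_WT1 and PH20_WT3 stood apart, with 10 B cell markers summing to 126 to 340 FPKM against 2.49 to 7.01 FPKM in the other 12 libraries. In 7 libraries, 1031 to 1685 genes held exactly 1 read, against 202 to 295 genes in the other 9. The 7 were Has2_WT2, Has2_WT3, Has2_TG2, PH20_WT3, PH20_TG2, PH20_TG3 and PH20_TG4. They were thus spread unevenly over the groups, with more of them in PH20_TG than in PH20_WT.

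The 2 members with the highest mean FPKM over all 16 libraries were β subunits. Itgb1, the β subunit shared by most matrix-binding integrins, was the most abundant member, with 66.7, 66.2, 65.3 and 95.2 FPKM in Has2_WT1 to Has2_WT4 and 77.5, 69.4, 71.7 and 76.7 FPKM in Has2_TG1 to Has2_TG4. In the PH20 study it measured 66.7, 84.3, 73.3 and 66.8 FPKM in PH20_WT and 97.0, 83.4, 71.8 and 80.2 FPKM in PH20_TG. The groups overlapped in each study, and the lowest Itgb1 value of any library lay above the highest of every other member. Its log2 fold change was 0.03 in Has2_TG against Has2_WT (95% interval -0.32 to 0.37) and 0.19 in PH20_TG against PH20_WT (-0.13 to 0.50). Itgb5, which pairs with Itgav to bind vitronectin, followed with 30.1, 35.3, 37.2 and 53.1 FPKM in Has2_WT and 24.5, 37.4, 56.3 and 47.8 FPKM in Has2_TG. In the PH20 study Itgb5 measured 32.7, 37.9, 33.1 and 27.3 FPKM in PH20_WT and 41.1, 52.1, 29.7 and 40.1 FPKM in PH20_TG. These groups overlapped too, and the log2 fold changes were 0.06 (95% interval -0.55 to 0.66) and 0.30 (-0.12 to 0.71). Over all 16 libraries Itgb5 averaged 38.5 FPKM and dystroglycan (Dag1) 36.7 FPKM, and their ranges overlapped.

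Among the α subunits, Itga7, which binds laminin and is best known from muscle, was the highest at 26.1 FPKM on average, and it made up 19.8% to 54.3% of the summed FPKM of all α subunits in a library. Its highest level was 43.7 FPKM in PH20_TG2, where the 10 skeletal muscle markers summed to 31.1 FPKM, within a range of 7.92 to 1020 FPKM over the libraries. The smooth muscle and pericyte markers had their highest sum in PH20_TG2, at 165 FPKM. They summed to 141 FPKM in PH20_TG4, where Itga7 was at 21.8 FPKM. The adipocyte markers had their highest sum in PH20_TG2 as well, at 8129 FPKM. Their lowest sum was 3428 FPKM in PH20_WT1, which also had the lowest Itga7 level, 14.5 FPKM. They summed to 8102 FPKM in PH20_TG3, where Itga7 was at 27.9 FPKM, and to 6580 FPKM in Has2_WT4, where it was at 36.9 FPKM. Whether Itga7 follows any of these cell types was not tested. The gene overlaps Mettl7b on the opposite strand (3.58 FPKM), and whether reads were counted by strand is not stated. Itga6, another laminin receptor, averaged 8.54 FPKM, and Itga5, the fibronectin receptor, 7.27 FPKM. Of the 33 members, 10 averaged at least 10 FPKM, 17 lay from 1 to 10 FPKM and 6 were under 1 FPKM. The 6 lowest were Itga10 at 0.657 FPKM, Itga2 at 0.294 FPKM, Itgb8 at 0.220 FPKM, Itga8 at 0.169 FPKM, Itgad at 0.168 FPKM and Itgb6, an epithelial subunit, at 0.0515 FPKM. Itgb6 had 0 to 28 reads in a library, and 30 of the 33 members had a read in all 16.

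**Figure D1:**
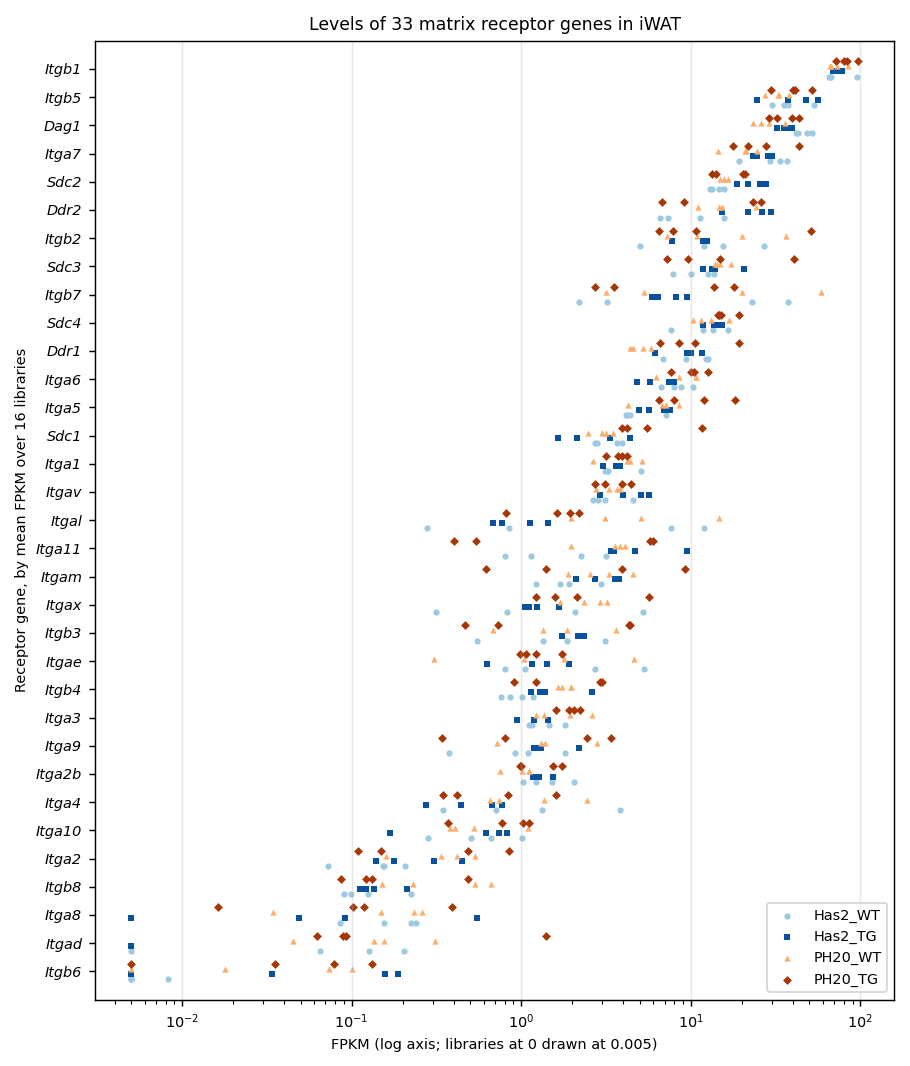
FPKM (log axis) of the 33 receptor genes, ordered by their mean, with 1 point for each of the 16 libraries and a colour and marker for each group. Itgb1 sits apart at the top with 65.3 to 97.0 FPKM, and Itgal and Itgb7 are spread widely among the control libraries.

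Members were tested with limma on log2(FPKM + 0.1), two-sided, where they averaged at least 50 reads over the 8 libraries of a study, and a gene was called at an unadjusted p under 0.05. In the Has2 study 28 members could be tested, and Itga2, Itga8, Itgad, Itgb6 and Itgb8 fell under the minimum. Itga11, Ddr2 and Sdc2 were higher in Has2_TG, Dag1 was lower and 24 members did not pass. Of all 12606 genes tested, 10.0% were called (6.25% higher and 3.75% lower), and the 4 of 28 members, 14.3%, lay near that background. The median log2 fold change of the members was -0.06, and that of all genes was -0.03. After Benjamini-Hochberg adjustment over all genes, 0 members and 13 genes passed. Of the 21 integrin subunits tested 1 was called, and of the 7 other receptors 3 were. The groups did not overlap for 3 members (Itga11, Sdc2 and Dag1), as they did not for 6.19% of all genes. The 24 members that did not pass had log2 fold changes from -1.18 to 0.65, with standard errors from 0.15 to 0.98.

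Itga11 encodes the α subunit of a fibroblast receptor for fibrillar collagen and lies on chromosome 9 of GRCm38 from 62677826 to 62783982 on the plus strand (ENSMUSG00000032243). It measured 2.25, 0.805, 1.14 and 3.15 FPKM in Has2_WT1 to Has2_WT4 and 3.53, 3.38, 9.54 and 4.68 FPKM in Has2_TG1 to Has2_TG4. The groups did not overlap, and Has2_TG3 was the highest of all 16. The means were 5.28 ± 2.89 and 1.84 ± 1.07 FPKM (SD, n = 4 each). On the log2(FPKM + 0.1) scale the change was 1.52 (SE 0.46, adjusted p = 0.262 by limma), a 2.87-fold difference. Itga11 made up 46.6% to 67.1% of the FPKM of the 4 collagen-binding α subunits in Has2_TG and 17.5% to 43.8% in Has2_WT. Itga1, which prefers the collagen IV of basement membranes, had a log2 fold change of -0.03 (95% interval -0.50 to 0.45), and Itga10 one of -0.10 (-1.26 to 1.05). With all 16 libraries in one fit Itga11 was not called (adjusted p = 0.458 by limma).

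Ddr2 is the collagen receptor kinase of fibroblasts and other mesenchymal cells and lies on chromosome 1 from 169972307 to 170110762 on the minus strand (ENSMUSG00000026674). Its levels were 11.3, 7.37, 6.56 and 15.7 FPKM in Has2_WT1 to Has2_WT4 and 21.8, 15.3, 29.6 and 26.3 FPKM in Has2_TG1 to Has2_TG4. The groups overlapped, since Has2_WT4 was above Has2_TG2, and the other 3 Has2_TG libraries were above all of Has2_WT. Mean FPKM was 23.3 ± 6.17 in Has2_TG and 10.2 ± 4.17 in Has2_WT (SD, n = 4 each), and the log2 fold change was 1.22 (SE 0.30, adjusted p = 0.139 by limma). Without Has2_WT4 it was 1.46 and the adjusted p was 0.0490 by limma, under the adjusted threshold. In that fit 141 of all genes passed after adjustment, against 13 with all 8 libraries, so the shift was not particular to Ddr2. The antisense gene 3110045C21Rik, at 0.930 FPKM, overlaps Ddr2. Ddr1, the relative of Ddr2 known mainly from epithelial cells, had a log2 fold change of -0.13 (95% interval -0.70 to 0.44). The ratio of Ddr2 to Ddr1 FPKM was 2.19 to 2.75 in Has2_TG and 0.601 to 1.65 in Has2_WT, so the groups did not overlap in it.

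Sdc2, the syndecan of fibroblasts, lies on chromosome 15 from 32920723 to 33034935 on the plus strand (ENSMUSG00000022261). It was at 15.8, 13.4, 13.04 and 14.6 FPKM in Has2_WT1 to Has2_WT4 and at 21.7, 18.8, 25.5 and 27.7 FPKM in Has2_TG1 to Has2_TG4. All Has2_TG libraries were above all Has2_WT libraries, and the Has2_WT libraries were close to each other. The difference of 23.4 ± 3.98 against 14.2 ± 1.26 FPKM (SD, n = 4 each) corresponded to a log2 fold change of 0.71 (SE 0.16, adjusted p = 0.105 by limma), the smallest p of the members. The log2 fold change of Sdc3 was 0.43 (SE 0.23, adjusted p = 0.603 by limma), that of Sdc4 was 0.20 (SE 0.23) and that of Sdc1 was -0.26 (SE 0.31). Summed over the 4 syndecans, FPKM was 47.8 to 65.9 in Has2_TG and 31.2 to 44.97 in Has2_WT, without overlap, and Sdc2 held 38.8% to 48.5% of the sum in Has2_TG and 31.2% to 41.8% in Has2_WT.

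Dag1, which encodes both the laminin-binding and the membrane-spanning part of dystroglycan, lies on chromosome 9 from 108204634 to 108263958 on the minus strand (ENSMUSG00000039952). In Has2_WT1 to Has2_WT4 it measured 41.7, 42.6, 51.5 and 48.6 FPKM, and in Has2_TG1 to Has2_TG4 37.9, 32.2, 39.8 and 35.4 FPKM. Each Has2_TG library was below each Has2_WT library. The mean fell from 46.1 ± 4.73 to 36.3 ± 3.28 FPKM (SD, n = 4 each), a log2 fold change of -0.34 (SE 0.13, adjusted p = 0.423 by limma). The call was lost when a library was left out: the log2 fold change was -0.29 without Has2_WT3, -0.32 without Has2_WT4, -0.29 without Has2_TG2 and -0.33 without Has2_TG4. It was also lost without the variance trend.

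The receptors that rose in Has2_TG did so together with markers of adipocyte progenitors and macrophages. The 7 progenitor markers summed to 542 to 773 FPKM in Has2_TG and 175 to 370 FPKM in Has2_WT, and all 7 were called higher. The 10 macrophage markers summed to 428 to 648 FPKM in Has2_TG and 210 to 421 FPKM in Has2_WT, and 8 of 10 were called higher. With the macrophage score as a covariate, the log2 fold change was 0.25 for Itga11, 0.43 for Ddr2, 0.67 for Sdc2 and -0.33 for Dag1, and only Sdc2 of these was called. With the progenitor score as a covariate it was -0.87 for Itga11, -0.46 for Ddr2, 0.22 for Sdc2 and -0.44 for Dag1, with none called. The progenitor marker sums and the macrophage marker sums each separate Has2_TG from Has2_WT without overlap. What genotype and either score contribute therefore cannot be told apart, also for Sdc2. Of all genes 4.68% were called with the macrophage score and 6.43% with the progenitor score, against 10.0% without a covariate. The calls held with a covariate for the B cell score, without the libraries rich in B cell markers and with a term for the libraries with many genes at 1 read.

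**Figure D2:**
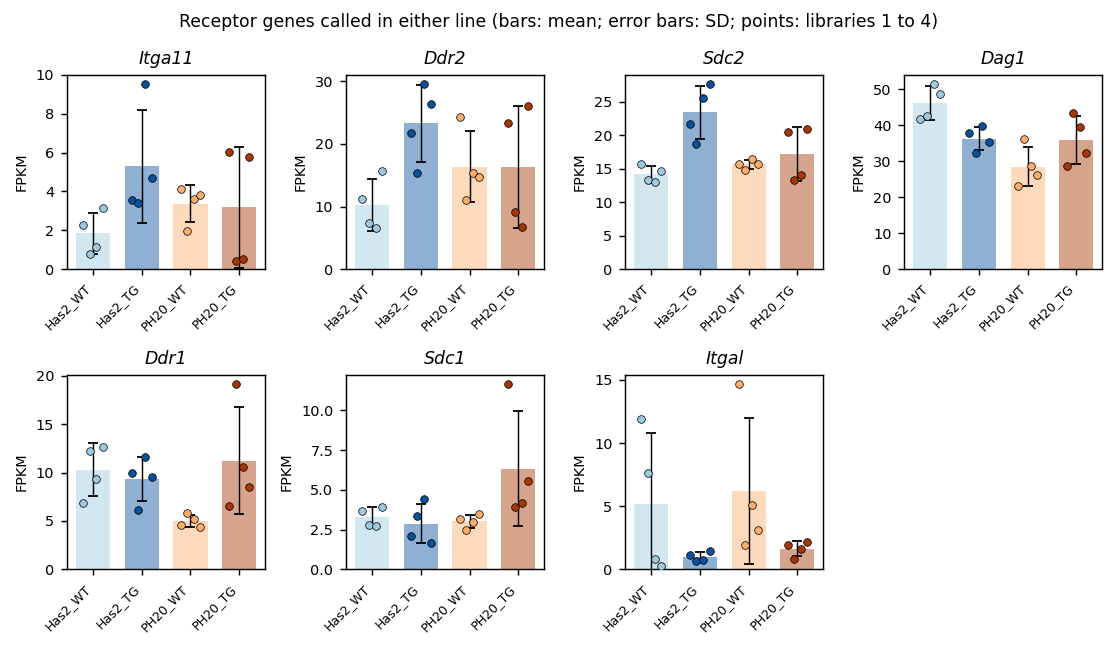
FPKM of the 7 receptors called in either study, as points for libraries 1 to 4 over bars of the group mean with the SD as error bars (drawn down to 0 at most). Itga11 and Sdc2 separate Has2_TG from Has2_WT, Ddr1 and Sdc1 separate PH20_TG from PH20_WT, and Itgal is spread over 1.97 to 14.7 FPKM in PH20_WT.

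In the PH20 study 29 members were tested, with Itga2, Itga8, Itgad and Itgb6 under the minimum. Ddr1 and Sdc1 were higher in PH20_TG, Itgal was lower and 26 members did not pass. Of all 12532 genes tested, 6.59% were called (3.20% higher and 3.39% lower), and among the members 3 of 29 were, 10.3%. Median log2 fold changes were 0.05 for the members and 0.01 for all genes. After adjustment by limma with Benjamini-Hochberg, 0 members and 0 of all genes passed, against 826 genes at the unadjusted threshold. The groups did not overlap for Ddr1 and Sdc1, as they did not for 4.54% of all genes. The 26 members that did not pass had log2 fold changes from -0.86 to 0.67, with standard errors from 0.14 to 0.96. None of the 4 members called in the Has2 study was called here. Without PH20_TG1 the same 3 members were called, with Dag1 higher (0.43) and Sdc3 lower (-0.57) beside them, where 9.35% of all genes were called.

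Ddr1 lies on chromosome 17 from 35681567 to 35704621 on the minus strand (ENSMUSG00000003534). It was at 4.56, 5.79, 5.23 and 4.36 FPKM in PH20_WT1 to PH20_WT4 and at 6.59, 19.1, 10.6 and 8.53 FPKM in PH20_TG1 to PH20_TG4. All PH20_TG libraries were above all PH20_WT libraries, and PH20_TG2 was the highest of the 16. The means were 11.2 ± 5.52 and 4.98 ± 0.652 FPKM (SD, n = 4 each), and the log2 fold change was 1.05 (SE 0.30, adjusted p = 0.664 by limma). Without PH20_TG1 it was 1.26 and remained called. The 8 libraries of the Has2 study held 6.16 to 12.7 FPKM of Ddr1, so PH20_WT was the low group of the 4, and PH20_TG was near the level of the Has2 study. The difference between the control groups was not tested, and mouse line and cohort cannot be told apart in it.

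Sdc1, the syndecan of epithelial and plasma cells, lies on chromosome 12 from 8771323 to 8793715 on the plus strand (ENSMUSG00000020592). Its levels in PH20_WT1 to PH20_WT4 were 3.18, 2.47, 3.01 and 3.47 FPKM, and in PH20_TG1 to PH20_TG4 they were 11.6, 3.91, 4.20 and 5.53 FPKM. The groups did not overlap, and PH20_TG1 was more than any other library of the series. The means were 6.32 ± 3.62 and 3.03 ± 0.420 FPKM (SD, n = 4 each), and the log2 fold change was 0.90 (SE 0.32, adjusted p = 0.702 by limma). It was 0.56 without PH20_TG1, still called, and 0.81 without PH20_WT2, no longer called. It was not called with a covariate for the B cell score (0.91) or without PH20_WT1 and PH20_WT3 (0.94). Sdc1 made up 9.80% to 12.6% of the summed syndecan FPKM in PH20_TG and 5.57% to 7.80% in PH20_WT. The 10 B cell markers summed to 2.52 to 4.14 FPKM in PH20_TG and to 4.68 to 340 FPKM in PH20_WT. The 7 epithelial markers summed to 0 FPKM in PH20_TG1 and to at most 5.10 FPKM in PH20_TG.

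Skeletal muscle markers differed between the PH20 groups, with 244 to 1020 FPKM in PH20_WT and 9.72 to 291 FPKM in PH20_TG, and all 9 that could be tested were called lower. With the muscle score as a covariate the log2 fold change was 0.72 for Ddr1, 0.71 for Sdc1 and -1.37 for Itgal, and none was called. Of all genes 2.23% were called in that fit. Itga7 and Dag1, receptors that muscle fibres are known to use, were not lower in PH20_TG: their log2 fold changes were 0.40 (95% interval -0.24 to 1.03) and 0.33 (-0.08 to 0.75). The Dag1 levels behind this value were 23.2, 36.1, 28.8 and 26.1 FPKM in PH20_WT and 28.8, 43.4, 39.4 and 32.2 FPKM in PH20_TG, and the groups overlapped. Itga5 had a log2 fold change of 0.67 (SE 0.34, adjusted p = 0.731 by limma), from 4.24 to 8.55 FPKM in PH20_WT and 6.52 to 18.3 FPKM in PH20_TG, and 0.40 without PH20_TG1.

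The members called in the Has2 study were uneven within PH20_TG. Itga11 was at 6.005, 0.402, 0.537 and 5.77 FPKM in PH20_TG1 to PH20_TG4, against 4.11, 1.96, 3.59 and 3.80 FPKM in PH20_WT1 to PH20_WT4. Ddr2 was at 23.3, 9.15, 6.77 and 26.0 FPKM in PH20_TG and at 24.3, 10.98, 15.3 and 14.7 FPKM in PH20_WT. Sdc2 was at 20.4, 13.3, 14.1 and 20.9 FPKM in PH20_TG and at 15.8, 14.8, 16.5 and 15.7 FPKM in PH20_WT. In all 3 genes PH20_TG1 and PH20_TG4 lay above PH20_TG2 and PH20_TG3, and for Itga11 and Sdc2 the PH20_WT libraries lay between these pairs. The progenitor markers summed to 769 and 813 FPKM in PH20_TG1 and PH20_TG4 and to 163 and 237 FPKM in PH20_TG2 and PH20_TG3, and the Has2 reads split the same way. The log2 fold changes were -0.86 for Itga11 (95% interval -2.78 to 1.06), -0.17 for Ddr2 (-1.19 to 0.86) and 0.10 for Sdc2 (-0.29 to 0.49), and none was called. Without PH20_TG1 they were -1.44, -0.41 and 0.0060, with none called either.

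**Figure D3:**
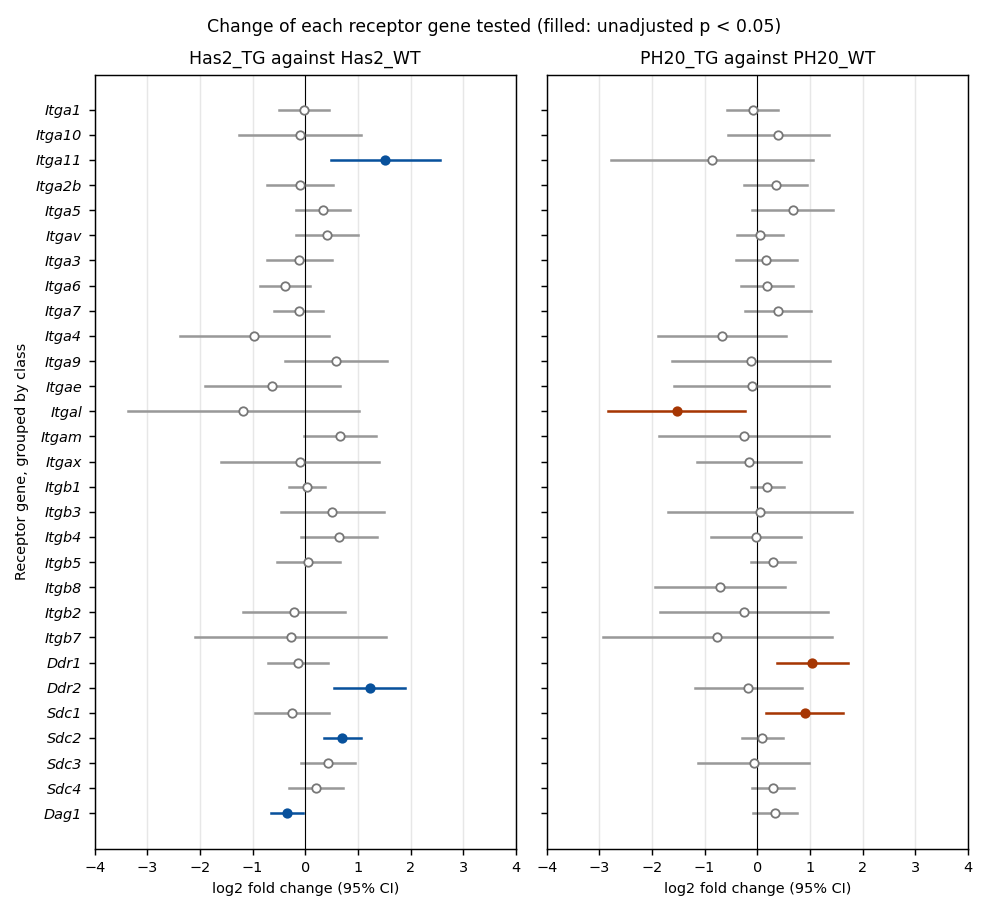
Log2 fold change with its 95% interval for each receptor tested, grouped by class, in Has2_TG against Has2_WT and in PH20_TG against PH20_WT, with called genes filled and coloured. Itga11, Ddr2, Sdc2 and Dag1 are called in the Has2 study and Ddr1, Sdc1 and Itgal in the PH20 study, and Itgal has the widest interval in the Has2 study and Itgb7 in the PH20 study.

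The difference between the studies was tested directly in a fit of all 16 libraries, as the change in Has2_TG minus the change in PH20_TG. Of 28 members tested, 3 were called higher (Itga11, Ddr2 and Sdc2) and 3 lower (Ddr1, Sdc1 and Dag1), where 7.70% of all 12593 genes were called (4.03% higher and 3.68% lower). Of these 6 members, 5 are not integrins. The differences in log2 fold change were 2.38 for Itga11 (SE 1.03), 1.39 for Ddr2 (SE 0.58) and 0.61 for Sdc2 (SE 0.23). They were -1.18 for Ddr1 (SE 0.41), -1.16 for Sdc1 (SE 0.47) and -0.68 for Dag1 (SE 0.22). Adjusted limma p-values were 0.598 to 0.614, so 0 members passed after adjustment. For Dag1 the control groups also stood apart, with 41.7 to 51.5 FPKM in Has2_WT and 23.2 to 36.1 FPKM in PH20_WT, while Has2_TG and PH20_TG averaged 36.3 and 36.0 FPKM.

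These differences depended on which libraries were kept. That of Itga11 was no longer called without Has2_WT2 (2.08), Has2_WT3 (2.23), Has2_TG3 (2.06), PH20_WT1 (2.27), PH20_WT3 (2.34), PH20_WT4 (2.31), PH20_TG2 (1.76) or PH20_TG3 (1.87). That of Ddr2 was lost without Has2_WT2 (1.27), Has2_WT3 (1.21), Has2_TG3 (1.26), Has2_TG4 (1.32), PH20_WT1 (1.18), PH20_TG2 (1.19) or PH20_TG3 (1.05). The one of Sdc1 was lost without Has2_TG1 (-1.05), Has2_TG4 (-0.94) or PH20_TG1 (-0.82). Those of Sdc2, Ddr1 and Dag1 were called with any library left out. None of them was called with the macrophage or the progenitor score as a covariate, whereas that of Sdc1 was called with both. With the muscle score as a covariate those of Sdc2 and Dag1 were called and that of Ddr1 was not. Without PH20_TG1 the differences of Sdc3 (1.00) and Itgam (1.54) were called higher and that of Itga6 (-0.69) lower as well. With a term for the libraries with many genes at 1 read, Ddr1, Sdc1 and Dag1 were called and Itga11 (1.58), Ddr2 (0.87) and Sdc2 (0.44) were not. Without the 4 libraries rich in B cell markers Ddr1 and Dag1 were called, Itga11 (1.91), Ddr2 (1.02), Sdc2 (0.60) and Sdc1 (-1.22) were not, and Itgal (1.48) was called higher in their place.

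Of the integrins of lymphocytes, Itgal and Itgb7 were highest in the 4 libraries rich in B cell markers. Itgal, the α subunit of the leukocyte adhesion receptor LFA-1, lies on chromosome 7 from 127296260 to 127335138 on the plus strand (ENSMUSG00000030830). It measured 14.7, 1.97, 5.10 and 3.10 FPKM in PH20_WT1 to PH20_WT4 and 1.93, 0.811, 1.63 and 2.20 FPKM in PH20_TG1 to PH20_TG4. The 2 highest values were those of PH20_WT1 and PH20_WT3, and the groups overlapped, since PH20_TG4 was above PH20_WT2. The log2 fold change was -1.53 (SE 0.57, adjusted p = 0.703 by limma), from 6.21 ± 5.78 FPKM in PH20_WT to 1.64 ± 0.601 FPKM in PH20_TG (SD, n = 4 each). With a covariate for the B cell score it was -0.40 and without PH20_WT1 and PH20_WT3 it was -0.65, so that it was called in neither. It was -0.98 without PH20_WT1 alone, still called, and the call was lost without PH20_WT3 (-1.48) or PH20_TG2 (-1.24). In the Has2 study Itgal was at 11.9, 7.67, 0.843 and 0.279 FPKM in Has2_WT1 to Has2_WT4 and at 0.679 to 1.44 FPKM in Has2_TG, and the log2 fold change of -1.18 was not called (95% interval -3.38 to 1.02).

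Itgb7, the β subunit of gut-homing lymphocyte integrins, also had its 4 highest levels in these libraries, and the order of the others differed from that of Itgal. It was at 37.4, 23.02, 2.19 and 3.21 FPKM in Has2_WT1 to Has2_WT4 and at 5.87, 6.42, 9.47 and 8.13 FPKM in Has2_TG1 to Has2_TG4. In PH20_WT1 to PH20_WT4 it was at 58.5, 5.28, 19.99 and 3.16 FPKM, and in PH20_TG1 to PH20_TG4 at 17.9, 3.54, 2.705 and 13.7 FPKM. With all libraries the log2 fold changes were -0.28 (95% interval -2.09 to 1.54) and -0.76 (-2.94 to 1.42). When Has2_WT1 and Has2_WT2 were left out, so that 2 controls remained, the log2 fold change became 1.43 (SE 0.28, adjusted p = 0.187 by limma), a comparison added after the values were seen. In that comparison Itgb3 (1.20) and Itgax (1.12) were called higher and Itga7 (-0.41) lower as well. Itgb2 and Itgb7, the leukocyte β subunits, together held 6.47% to 47.3% of all β FPKM in a library. The T cell markers followed the B cell markers, at 81.2 to 211 FPKM in the 4 libraries and at most 13.9 FPKM in the others.

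Of the other leukocyte subunits, Itga4 reached 3.81 FPKM in Has2_WT1 and 2.46 FPKM in PH20_WT1, and Itgae 5.30 and 4.65 FPKM in the same libraries. The other 2 libraries rich in B cell markers did not stand apart in both genes: Itga4 was at 1.33 FPKM in Has2_WT2 and 1.36 FPKM in PH20_WT3, below the 1.61 FPKM of PH20_TG1, and Itgae was at 1.78 FPKM in PH20_WT3, below the 1.92 FPKM of Has2_TG3. Itgam, of the macrophage and neutrophil receptor Mac-1, had a log2 fold change of 0.65 in Has2_TG (SE 0.30, adjusted p = 0.528 by limma), from 1.22 to 2.95 FPKM in Has2_WT and 2.11 to 3.75 FPKM in Has2_TG. Itgad, under the minimum for testing, had 0 reads in all 4 Has2_TG libraries and 0 to 25 reads in Has2_WT. A count of 0 allows up to 3 reads, and these limits cover counting error only.

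**Figure D4:**
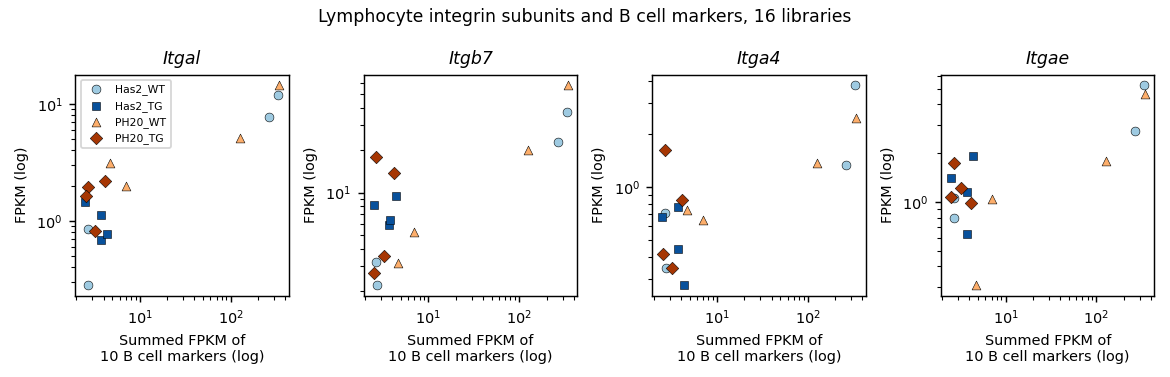
FPKM of Itgal, Itgb7, Itga4 and Itgae against the summed FPKM of 10 B cell markers in the same library, on log axes, with 1 point for each of the 16 libraries. The 4 control libraries at 126 to 340 FPKM of B cell markers stand apart on the right, and they hold the 4 highest Itgal values and the 4 highest Itgb7 values.

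The ligands of the receptors were mostly higher in Has2_TG where they were called. The lists of ligands and other partner genes were chosen with earlier results of these data known, so their counts are descriptive only. Among 10 collagens 6 were called higher and 0 lower (median log2 fold change 0.76), with Col14a1 at 2.01, Col1a2 at 1.44, Col1a1 at 1.53 and Col3a1 at 1.00. Among 13 laminins and other basement membrane genes tested, 5 were higher and 0 lower (median 0.15), with Lama2 at 1.37, Lamc1 at 0.70 and Nid1 at 0.67. Among 20 RGD proteins and other matrix glycoproteins, 9 were higher and 0 lower (median 0.49), with Thbs3 at 1.42, Fn1 at 2.19, Ltbp1 at 1.57 and Fbn1 at 1.93. Of 7 tested ligands that sit on cell surfaces, such as Icam and Vcam genes, 0 were called by limma at the unadjusted threshold. No gene of these lists passed after adjustment. Of all genes tested 6.25% were higher, and of the integrin subunits 1 of 21.

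Inside the cell, receptors are tied to the cytoskeleton by adaptors and kinases. Of 33 such genes tested, 3 were higher and 2 lower in Has2_TG (median 0.01), or 15.2% called, against 10.0% of all genes. Zyx, a focal adhesion protein that responds to tension, was at 24.2 FPKM in Has2_TG and 12.5 FPKM in Has2_WT, a log2 difference of 0.95 (SE 0.22, adjusted p = 0.108 by limma) and no overlap between the groups. Paxillin (Pxn) was higher at 0.52 and its relative Tgfb1i1 at 0.43, whereas the kinase Ptk2b at -0.81 and vinculin (Vcl) at -0.56 were lower. In the dystrophin-glycoprotein complex around Dag1, Sntb2 was called higher at 0.51 and the other 16 of the 17 tested were not called. Of 16 syndecan partners and heparan sulfate enzymes, Glce was higher at 0.43 and Xylt1, which starts the sugar chain, was lower at -1.11. The shares called in the last 2 lists, 5.88% and 12.5%, were near the 10.0% of all genes.

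In the PH20 study 4 of 10 collagens were higher (median 0.44), namely Col6a3 at 0.75, Col4a2 at 0.52, Col6a2 at 0.62 and Col4a1 at 0.53. These are collagens of basement membranes and microfibrils. Of all genes tested 3.20% were called higher, and none passed after adjustment. Ddr1 is known to bind collagen IV, but a link between its call and those of the collagens was not tested. Of 12 basement membrane genes Hspg2 was higher at 0.43, and of 20 RGD proteins and glycoproteins Cyr61 was higher at 2.30 and vitronectin (Vtn) lower at -0.56. Of the 32 adaptors Kank2 was higher at 0.49, and of the 16 syndecan partners and enzymes Ext2 was higher at 0.32. In the dystrophin-glycoprotein complex 0 of 17 and among cell-surface ligands 0 of 7 were called by limma. Over all 7 lists, 25 of 116 genes were higher and 3 lower in Has2_TG, and 8 of 114 were higher and 1 lower in PH20_TG. The share called was 24.1% in the Has2 study, against 10.0% of all genes, and 7.89% in the PH20 study, near the 6.59% of all genes. Since the lists were chosen with earlier results known, these shares are not an independent test. Without PH20_TG1, 6 partner genes were higher and 3 lower in the PH20 study, or 7.89% called against 9.35% of all genes. Col4a1, Col6a2 and Ext2 were no longer called, and Tns2 (0.41) was called higher and Apbb1ip (-1.496) and Fermt3 (-1.23) lower. With the progenitor score as a covariate the counts over the 7 lists were 1 higher and 6 lower in Has2_TG, and 23 higher and 2 lower in PH20_TG. Of all genes 6.43% were called in the Has2 study and 9.14% in the PH20 study with that covariate.

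**Figure D5:**
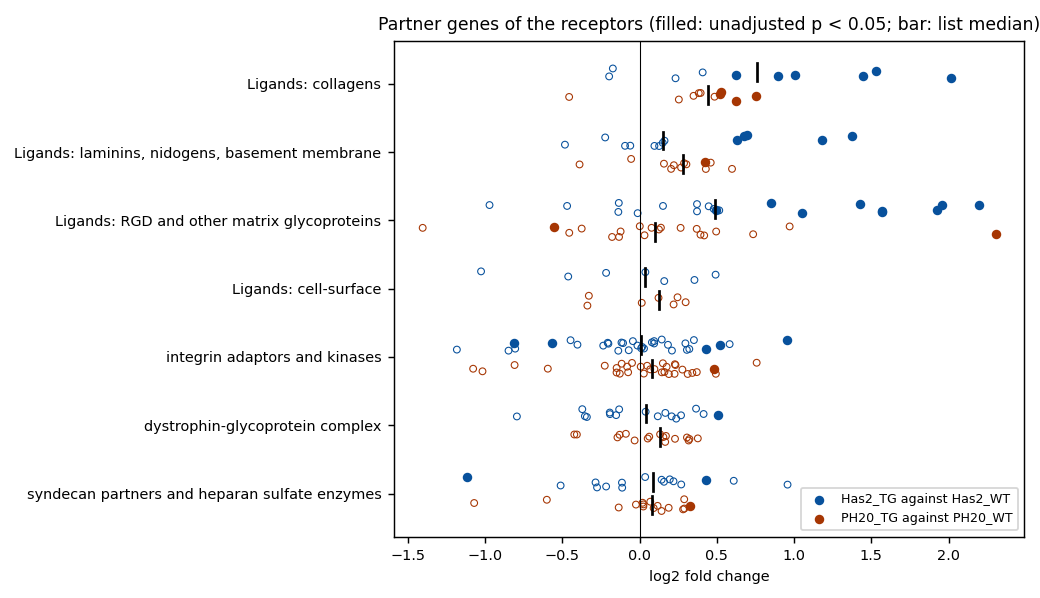
Log2 fold change of each tested gene in 7 lists of receptor partners, with called genes filled and a bar at the median of each list, in Has2_TG against Has2_WT and PH20_TG against PH20_WT. In the Has2 study the filled points lie mostly among collagens, basement membrane genes and matrix glycoproteins (20 of the 25 called higher), and the adaptor, dystrophin and syndecan lists are centred near 0.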

How the data were processed

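Bulk RNA of iWAT from 16 male mice was measured, 4 libraries in each of 4 groups, and samples were grouped by the titles of their labels. The authors extracted the RNA with TRIzol, prepared TruSeq libraries, aligned the reads with STAR (version 2.7.9a) to GRCm38, used STAR's gene counts, and deposited FPKM for 54532 genes in each library beside the gene lengths. How FPKM was scaled between libraries is not stated. FPKM multiplied by gene length and by a library total gave whole reads, within 0.02 of a read, in 100% of the values, and the deposited library totals differ by at most 3.45e-08% from those of median-of-ratios scaling over the 16 libraries, so that such scaling, tried as an alternative, changes values only within a study. Whether reads were counted by strand is not given in the sources used here. All 33 receptors have the same start, end and strand in GENCODE mouse release M21.

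From these values, limma (version 3.58.1, R version 4.3.3) was fitted on log2(FPKM + 0.1) with a variance trend, two-sided, for each study's 8 libraries and for genes that averaged 50 reads or more, the minimum of the authors' methods. The recovered reads entered a test only as an alternative, with voom weights, and no count model was fitted to them. Genes were called at an unadjusted p under 0.05, with Benjamini-Hochberg adjustment over all genes beside it. Whether a change differed between the studies was tested with the 16 libraries together. Called receptors and the 3 with the highest mean are given with every library, and of each partner list the called genes are named, at most the 4 with the smallest p in each study, except that Tgfb1i1 was added to complete a count, that genes called only without PH20_TG1 were named after their values were seen, and that 1 gene is not reported here. The receptors and gene lists were chosen with earlier results of these data known. Over the 120 pairs of libraries chi-square per degree of freedom between the reads was at least 28.7, so none was a duplicate. The labels do not say whether litters were shared, and p-values measure the spread between these mice. Same-numbered libraries correlated with r of -0.18 to 0.42, so the numbers were not taken to pair mice. Each result was recomputed under other pseudocounts, expression minimums, scalings and variance models, with every library in a joint model, with a replicate block, with marker scores or a term for libraries with many genes at 1 read, and with libraries left out. The procedure was tested on simulated data. Sequences of the receptors are not shown here.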

Additional observations from a re-analysis of the deposited data

Results flagged for a closer look

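In 9 of 116 receptor and group pairs, 1 library lay far from the other 3 of its group. Chance gives about 1 in 20, so the share flagged was not far above it. In Has2_WT these were Itga1 at 5.10 FPKM in Has2_WT1 (next 3.26), Itga5 at 7.12 FPKM in Has2_WT4 (next 4.38) and Itgb1 at 95.2 FPKM in Has2_WT4 (next 66.7). In Has2_TG they were Itga9 at 2.18 FPKM in Has2_TG4 (next 1.31), Itgb4 at 2.60 FPKM in Has2_TG3 (next 1.37) and Itgb2, which was low at 7.73 FPKM in Has2_TG1 (next 11.8). In PH20_TG they were Itgb2 at 51.1 FPKM (next 10.8) and Sdc4 at 19.3 FPKM (next 15.0), both in PH20_TG1, and Itgb8 at 0.482 FPKM in PH20_TG4 (next 0.132).

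The change of 6 receptors differed between the studies in the fit of all 16 libraries. As the log2 fold change in Has2_TG minus that in PH20_TG, the differences were 2.38 for Itga11, 1.39 for Ddr2, 0.61 for Sdc2, -1.18 for Ddr1, -1.16 for Sdc1 and -0.68 for Dag1. None passed the adjusted threshold of limma.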

How the results depend on the processing

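Receptor calls rested on 4 libraries a group and on unadjusted p-values, and low subunits were left out by the minimum of 50 reads. With no minimum Itgad, at 0 reads in all Has2_TG libraries, was called lower there. The mean levels of Itgb1 (73.1 to 76.5 FPKM), Itgb5 (37.3 to 39.4 FPKM) and Dag1 (35.8 to 37.6 FPKM) moved by less than their spread under every alternative run on them. The cause of the shifts that follow was not tested.

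In the Has2 study 3 receptors were higher and 1 lower. The higher count was 6 with the B cell covariate, 6 without the 4 libraries rich in B cell markers, 1 with the macrophage covariate and 0 with the adipocyte progenitor covariate. Of all genes 10.0% were called at first, 9.24% with the B cell covariate and 9.59% without the 4 libraries. The share fell to 4.68% with the macrophage covariate and 6.43% with the progenitor covariate. The lower count was 2 with no minimum of reads, 2 without the 4 libraries, 0 with no variance trend and 0 with the progenitor covariate. With no minimum 6.51% of all genes were called, and with no variance trend 9.84%. With the progenitor covariate the log2 fold change turned to -0.87 for Itga11 and -0.46 for Ddr2, and the difference between the studies to -0.00080 for Itga11. With 1 library left out the counts were 3 to 5 higher and 0 to 1 lower, where 7.51% to 11.6% of all genes were called.

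In the PH20 study 2 were higher and 1 lower. The higher count was 4 with all 16 libraries in one fit, 4 with the progenitor covariate, 4 with the term for libraries with many genes at 1 read, 1 without the 4 libraries and 0 with the skeletal muscle covariate. The shares of all genes called in these fits were 5.00%, 9.14%, 4.74%, 4.52% and 2.23%, against 6.59% at first. The lower count was 0 with all 16 libraries in one fit, the B cell covariate, the muscle covariate, the term for many genes at 1 read or the 4 libraries left out. With the B cell covariate 6.09% of all genes were called. With 1 library left out the counts were 2 to 4 higher and 0 to 2 lower, where 4.56% to 9.35% of all genes were called.

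With the replicate number as a block, 6 receptors were higher in PH20_TG (Ddr1, Sdc1, Itga5, Itga7, Dag1 and Sdc4), 3 were higher and 1 lower in Has2_TG, and 3 partner genes were lower in PH20_TG. Of all genes 10.4% were then called in the PH20 study, against 6.59% without the block, and 9.15% in the Has2 study. The numbers were not shown to pair the mice (r of -0.003, 0.13, -0.18 and 0.02 in the Has2 study and 0.34, 0.42, -0.03 and -0.04 in the PH20 study), and not every library correlated best with its own number.

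Between the studies 3 differences were higher and 3 lower. The higher count was 0 with the macrophage covariate, the progenitor covariate or the term for many genes at 1 read, and 1 without the 4 libraries. The shares of all genes called in these fits were 5.32%, 5.42%, 5.59% and 5.74%, against 7.70% at first. The lower count was 1 with the muscle covariate, where 8.47% of all genes were called. With 1 library left out the counts were 1 to 5 and 2 to 3, where 5.06% to 10.7% of all genes were called.

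Of the partner genes, 25 were higher and 3 lower in Has2_TG. These were 2 and 0 with the macrophage covariate, 1 and 6 with the progenitor covariate, and 17 to 25 and 1 to 5 with 1 library left out. In PH20_TG 8 were higher and 1 lower. The higher count was 3 with the muscle covariate, 16 with the macrophage covariate, 23 with the progenitor covariate and 5 without the 4 libraries. Of all genes in the PH20 study 8.43% were called with the macrophage covariate and 5.01% with no minimum of reads. The other shares are those given above for each study. The lower count was 3 with no minimum of reads, 2 with the progenitor covariate, and 0 with all 16 libraries in one fit, the B cell covariate, the muscle covariate or the 4 libraries left out. With 1 library left out the counts were 6 to 17 and 1 to 3. The progenitor covariate, the term for genes at 1 read, scaling by the reads on genes alone and leaving out the 4 libraries were added after seeing the data.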

Other observations

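PH20_TG1 held the highest levels of several integrin subunits of myeloid cells, and of Sdc3. Itgad, a β2-pairing α subunit of tissue macrophages, had 108 reads there and at most 25 reads in any other library. Itgam was at 9.22 FPKM in PH20_TG1 and at most 4.59 FPKM elsewhere, Itgb2 at 51.1 FPKM and at most 36.3 FPKM elsewhere, and Sdc3 at 40.8 FPKM and at most 20.7 FPKM elsewhere. Itgax was at 5.65 FPKM, near the 5.20 FPKM of Has2_WT1. The 10 macrophage markers summed to 1054 FPKM in PH20_TG1 and to 157 to 677 FPKM in the other libraries.

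Among other cell types, platelet and megakaryocyte markers summed to 21.2 to 72.6 FPKM, and Itga2b, the platelet α subunit, to 0.746 to 2.05 FPKM. Endothelial markers summed to 71.6 to 157 FPKM, smooth muscle and pericyte markers to 65.5 to 165 FPKM, Schwann cell markers to 146 to 360 FPKM, dendritic cell markers to 7.21 to 62.9 FPKM and neutrophil markers to 0.667 to 6.47 FPKM. Itgb4, the laminin receptor subunit of epithelial and Schwann cells, was at 0.764 to 3.01 FPKM, and the epithelial markers summed to at most 12.0 FPKM.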
